A study of Mus musculus with 22 samples.

Results

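The early retinal neuron genes described here are 39 genes grouped under that name and chosen by symbol from the gene table, which lists 44792 genes. The name did not hold for every member in these data: Nefh, Thy1, Rtn1 and Gap43 were lower in the embryonic cells than in injured glia, Pou4f3 was hardly detected, and Robo2 was at similar levels in both. The set holds 14 transcription factors, 4 RNA-binding proteins, 9 proteins of microtubules and growth cones, 4 intermediate filament proteins of neurons, 4 surface and guidance molecules and 4 membrane, vesicle or other proteins. RNA was sequenced from 4 groups of C57BL/6 mouse cells, and CpG methylation was measured in the same 4 groups by reduced representation bisulfite sequencing (RRBS), which reads CpG-rich fragments of the genome. Müller glia, the radial support cells of the retina, were sorted by flow cytometry for the Rlbp1-GFP reporter, which marks them in green. Uninjured young cells came from mice of 2 to 3 months (2 RNA and 3 RRBS libraries). Injured cells came from mice of the same age that had received NMDA in the vitreous 2 days earlier (3 and 3 libraries), and aged cells from uninjured mice of 1.5 years (2 and 3 libraries). Retinal progenitor cells (RPCs) came from embryos at day 12.5 (3 and 3 libraries). The labels mention a sort for the Müller cells and no sort for the embryonic cells. The labels do not tie libraries to separate animals in every group, so p-values measure the spread between these libraries, which may be technical.

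As retinal progenitors leave the cell cycle, transcription factors such as Isl1, the Pou4f family and the Onecut and Ebf factors set the fate of ganglion, horizontal and amacrine cells. The newborn cells then make Elav-like RNA-binding proteins, which act on splicing and stability of neuronal messages, and a set of tubulins, stathmins and collapsin response proteins that build the axon. Ganglion cells are the first neurons born in the mouse retina. NMDA overactivates a class of glutamate receptors, and in the eye it kills ganglion and amacrine cells above all. Some axon genes, Gap43 and Stmn2 among them, are also known from injured adult neurons.

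The RNA libraries held 10149390 to 36486072 counts. Levels are given in CPM, counts scaled to the same total in every library, as mean ± SD with n = 2 young, 3 NMDA, 2 aged and 3 RPC libraries. They are not scaled by gene length, so levels are compared between libraries and not between genes. The young libraries stood apart at the low end: genes with 5 to 39 counts made up 4.04% and 13.4% of the genes with any count in them, against 21.5% to 23.3% in the other 8 libraries. Of the 39 members, 18 and 17 had no count in young replicates 1 and 2, against 3 to 4 in the NMDA, 3 to 7 in the aged and 0 to 2 in the RPC libraries. Some members, most of them already counted among those without a count, were split between the young libraries. There were 6 (Isl1, Elavl2, Elavl3, Nefl, Cntn2 and Sncg) with at least 40 counts in young replicate 1 and at most 1 in young replicate 2. A further 5 (Onecut2, Stmn4, Nefm, Nsg1 and Mllt11) had at least 20 counts in replicate 2 and at most 1 in replicate 1. A member at 0 in the young libraries is therefore reported as listed at 0, with no fold change, and the aged libraries serve as a second uninjured comparison, which differs in age as well. In bulk RNA, fewer cells of a type and less RNA per cell cannot be told apart. The Müller cell marker list (12 genes) summed to 52710 to 61590 CPM in young, 49935 to 50759 in aged, 16159 to 20729 in NMDA and 2467 to 2522 in RPC libraries. NMDA replicate 2 had the highest sums of microglia and macrophage markers (4116 CPM against 443 and 859) and of lens markers (1121 CPM against 42.2 and 63.0).

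Promoter sequences, from 250 bases before to 50 bases after a RefSeq start, could be matched for 25 of the members, with 40 promoters in all (RefSeq, build GRCm38.p6). Nefh, Nsg1, Onecut2, Nefm, Stmn4, Rbpms, Ebf2, Dpysl3, Thy1, Gap43, Stmn2, Pou4f3, Slit1 and Nefl had no entry. The promoters of 4 members whose RNA or methylation is described in detail below are shown, each with CpGs read by RRBS in all 12 libraries; capitals mark the CpGs that were measured. Such CpGs also lay in the promoters of Cntn2, Dlx1, Dlx2, Mllt11, Elavl2, Onecut1, Robo2 and Ina, which are not shown. The Ebf1 promoter is that of the more downstream of its 2 starts (chr11:44619978-44620277, plus strand), the Ebf3 promoter lies at chr7:137314396-137314695 (minus strand), the Isl1 promoter at chr13:116309639-116309938 (minus strand) and the Tubb3 promoter at chr8:123411303-123411602 (plus strand).
Ebf1: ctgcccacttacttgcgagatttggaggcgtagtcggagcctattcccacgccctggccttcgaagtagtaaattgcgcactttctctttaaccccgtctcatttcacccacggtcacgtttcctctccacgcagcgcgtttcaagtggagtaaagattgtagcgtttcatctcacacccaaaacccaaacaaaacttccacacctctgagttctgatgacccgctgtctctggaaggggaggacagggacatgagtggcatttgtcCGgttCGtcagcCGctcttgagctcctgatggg
Ebf3: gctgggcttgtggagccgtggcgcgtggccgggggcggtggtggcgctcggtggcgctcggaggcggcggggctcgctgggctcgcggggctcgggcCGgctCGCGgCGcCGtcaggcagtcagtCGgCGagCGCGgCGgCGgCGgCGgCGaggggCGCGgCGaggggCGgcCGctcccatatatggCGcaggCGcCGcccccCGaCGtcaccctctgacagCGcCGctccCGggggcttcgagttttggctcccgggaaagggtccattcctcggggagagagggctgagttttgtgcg
Isl1: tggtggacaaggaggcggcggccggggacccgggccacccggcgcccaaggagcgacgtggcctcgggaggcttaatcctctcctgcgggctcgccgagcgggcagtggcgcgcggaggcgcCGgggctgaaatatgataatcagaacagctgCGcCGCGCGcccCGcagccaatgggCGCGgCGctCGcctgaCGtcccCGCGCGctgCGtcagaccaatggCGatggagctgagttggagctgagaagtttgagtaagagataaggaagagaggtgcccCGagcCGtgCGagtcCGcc
Tubb3: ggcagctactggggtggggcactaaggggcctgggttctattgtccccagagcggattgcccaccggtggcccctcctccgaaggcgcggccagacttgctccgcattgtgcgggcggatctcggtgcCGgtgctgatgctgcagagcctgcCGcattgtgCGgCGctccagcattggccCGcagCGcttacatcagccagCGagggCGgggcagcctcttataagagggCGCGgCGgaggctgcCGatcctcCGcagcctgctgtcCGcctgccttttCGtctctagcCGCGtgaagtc
RRBS covered 27 of the 46 CpGs of the Ebf3 promoter, 20 of 37 in Isl1 and 17 of 26 in Tubb3, but only 3 of 17 in Ebf1. The Ebf3 promoter was methylated in 2.41% to 2.75% of reads in young, 0.687% to 1.42% in NMDA, 0.261% to 0.564% in aged and 0.412% to 2.47% in RPC libraries. In Tubb3 the highest library of the 12 was at 2.97%, and in Isl1 at 3.96%, both among the young libraries. These 3 promoters were thus nearly free of methylation in glia and in the embryonic cells alike. The 3 measured CpGs of the Ebf1 promoter, all downstream of the start, stood higher, at 7.83% to 19.02% in young, 5.41% to 10.9% in NMDA, 2.29% to 8.15% in aged and 0.756% to 7.53% in RPC libraries. Member promoters held a median of 18 CpGs, against 7 over all 32851 promoters in the table. Of 4 motifs searched on both strands, the E-box CAGCTG, which proneural factors bind, was in 11 of the 40 member promoters (27.5%, against 16.3% of all promoters), in Elavl2, Elavl3, Elavl4, Ina, Isl1, Nhlh2, Pou4f1 and Robo2. The Ebf motif CCCNNGGG was in 6 (15% against 13.7%). The AP-1 motif TGANTCA (7.81% of all promoters) and the Onecut motif ATCGAT (0.925%) were in none of the member promoters. The motifs were searched separately, so that matches of different motifs could overlap, and a match is a description of letters only. Promoters of neighbouring starts of a gene can overlap and then share a match. This was so for the E-box in Elavl2 and Elavl4, where the same site was counted in more than 1 promoter.

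The question of the RNA comparisons is where the early neuron genes are expressed in the embryonic pool and whether injured glia express any of them. Of the members, 38 passed the filter on low counts and were tested, and Pou4f3 was not. Members with few or no counts in every Müller library, such as Pou4f2, Dlx1 and Dcx, passed it through the RPC libraries alone. For these a higher level in RPCs was fixed in advance. Nefh and Thy1, with at most 2 counts in any RPC library, passed it through the Müller libraries alone, which fixed their lower level in RPCs. The RPC counts below therefore include calls that the filter decided. RPCs had higher levels than NMDA Müller cells for 31 of the 38 and lower levels for 4 (edgeR adjusted p under 0.05 here and below), where 25.8% of all 18931 genes tested were higher and 31.9% lower. Against young Müller cells, 30 were higher and 3 lower in RPCs, with 35.9% and 24.9% of all genes. Between NMDA and aged Müller cells, 5 members were higher after injury and 3 lower, that is 13.2% and 7.89% of those tested, close to the 10.5% and 9.8% of all genes. Against young Müller cells, 12 members were higher after NMDA and 0 lower, with 30.6% and 14.3% of all genes. In that last comparison, 9 of the 12 had at most 1 count in both young libraries, and only Gap43, Dpysl3 and Map1b had at least 40 in both. Aged cells had 8 members higher and 2 lower than young cells (21.1% and 5.85% of all genes), and 7 of the 8 had at most 1 count in both young libraries. In CPM, 33 members had every RPC library above every NMDA library (44.6% of all genes), and Thy1 and Robo2 had every NMDA library below both young ones (2 of 38, with 21.3% of all genes). The median log2 difference over the members was 4.56 for RPCs against NMDA cells (all genes -0.08) and 0.63 for NMDA against aged cells (all genes 0.04). The 5 comparisons share groups, so they are not independent of each other.

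**Figure D1:**
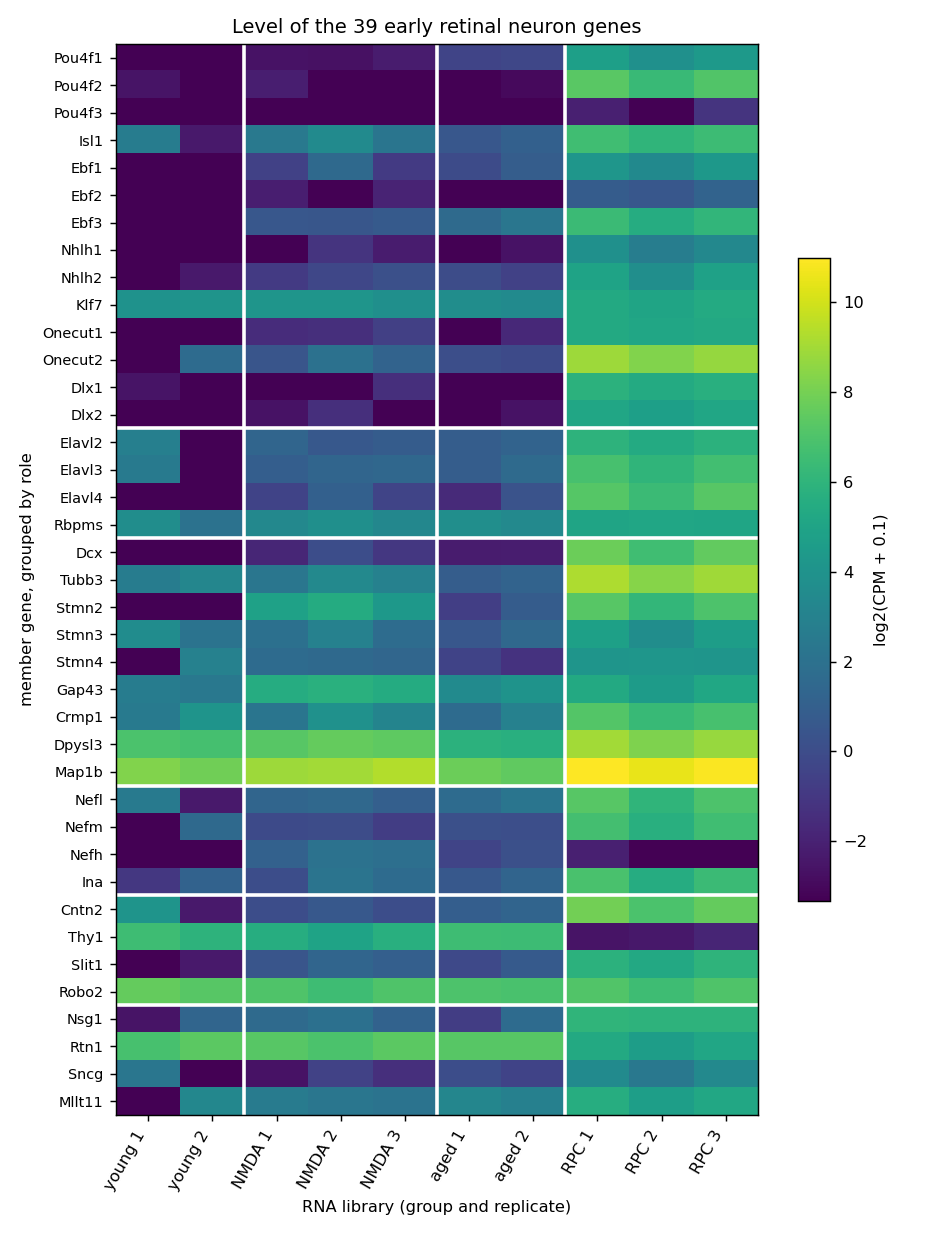
Heat map of the level of each of the 39 members (rows, grouped by role, separated by white lines) in each of the 10 RNA libraries (columns), as log2(CPM + 0.1). The 3 RPC libraries are bright for nearly all members, with Nefh, Thy1 and Pou4f3 dark, and the young libraries show many members at 0.

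The transcription factors had low levels in Müller cells of every group. Their summed level was 25.1 to 38.2 CPM in NMDA, 20.3 to 22.2 in aged and 19.9 to 22.0 in young libraries, against 677 to 1084 in RPC libraries. All 13 that were tested were higher in RPCs than in NMDA cells and than in young cells. Of these, Pou4f2, Onecut1, Nhlh1, Ebf2, Dlx1 and Dlx2 had at most 10 counts in any Müller library. They passed the low-count filter through the RPC libraries, so the direction of their calls was fixed by that filter. Pou4f2, a factor of ganglion cell differentiation, was at 159, 83.0 and 135 CPM in the RPC libraries. In the Müller libraries it had 0 to 2 counts each, at most 0.126 CPM. Onecut2, which acts in horizontal and ganglion cell genesis, stood at 478, 302 and 421 CPM in RPC libraries and at 1.26, 3.98 and 2.28 CPM after NMDA. All RPC libraries were far above all NMDA libraries for both genes, with log2 differences of 11.20 ± 0.67 (SE, edgeR adjusted p = 1.56e-06) for Pou4f2 and 7.07 ± 0.74 (edgeR adjusted p = 4.79e-05) for Onecut2. Onecut1 was at 35.1 to 41.0 CPM in RPC and at most 0.557 CPM in NMDA libraries.

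Isl1, a LIM-homeodomain factor of ganglion, amacrine and bipolar cells, had counts in every library. Its levels were 5.29, 11.2 and 4.62 CPM after NMDA, 1.398 and 1.99 in aged cells, 6.18 and 0.0985 in young cells and 97.5, 64.7 and 89.8 in RPCs. The NMDA libraries lay above both aged libraries but overlapped the young ones. The difference from aged cells did not pass the test (log2 1.98 ± 0.93, edgeR adjusted p = 0.178), nor did that from young cells (1.20 ± 0.92, edgeR adjusted p = 0.319). With both young libraries left out of the fit, Isl1 passed against aged cells (edgeR adjusted p = 0.0061).

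Pou4f1, the Brn3a gene of ganglion cells, and Ebf3, a helix-loop-helix factor of newborn ganglion and amacrine cells, were lower in NMDA than in aged cells. Pou4f1 had 24 counts in each aged library (0.658 and 0.723 CPM) and 1, 1 and 2 counts after NMDA (0.0561 to 0.111 CPM), with a log2 difference of -3.13 ± 0.54 (edgeR adjusted p = 0.00661). Ebf3 stood at 2.93 and 4.73 CPM in aged and at 1.39, 1.29 and 1.56 CPM in NMDA libraries, and was lower by 1.51 ± 0.34 on the log2 scale (edgeR adjusted p = 0.0201). The groups did not overlap for either gene. Both genes were listed at 0 in both young libraries and called higher in aged than in young cells. The lower level after NMDA thus held against the aged cells only. Leaving out aged replicate 2 ended the Ebf3 call (edgeR adjusted p = 0.154), as did leaving out any 1 NMDA library (edgeR adjusted p 0.0518 to 0.0649). Ebf3 also spans a predicted gene, and the counting strand is not given.

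Ebf1, Ebf3, Nhlh2 and Onecut1 were called higher after NMDA than in young cells, at NMDA means of 1.27, 1.41, 0.724 and 0.363 CPM. All 4 had 0 or 1 count in each young library, and against aged cells none of them passed as higher: Ebf1 stood at 1.27 ± 1.33 CPM after NMDA and 1.31 ± 0.655 in aged cells. The Onecut1 call against young cells ended under the replicate block (edgeR adjusted p = 0.0996) and without either young, any NMDA or any RPC library (edgeR adjusted p 0.0564 to 0.0949). The Nhlh2 call ended without young replicate 1 (edgeR adjusted p = 0.0615) and with the 2 groups fitted alone (edgeR adjusted p = 0.0649). Klf7, a Krüppel-like factor of axon growth, was the 1 factor well above the floor in all groups, at 16.2 ± 0.704 CPM in young, 16.1 ± 1.86 in NMDA, 11.9 ± 0.916 in aged and 38.4 ± 5.80 in RPC libraries. Its excess in RPCs over NMDA cells was 1.02 ± 0.18 on the log2 scale (edgeR adjusted p = 0.00149). Dlx1 and Dlx2, homeobox genes of interneuron and ganglion cell genesis, reached 42.1 to 57.4 and 26.9 to 35.5 CPM in RPC libraries, with 0 to 5 counts in each Müller library. Dlx1 overlaps its antisense gene, so its reads cannot be assigned to 1 strand. Nhlh1, a helix-loop-helix factor of newborn neurons, was at 6.51 to 14.6 CPM in RPC and at most 0.337 CPM in NMDA libraries. Nhlh2, its close relative, reached 13.3 to 30.9 CPM in RPCs. Ebf2 was at 1.36 to 2.27 CPM in RPCs and 0 to 0.167 CPM after NMDA. Pou4f3 had 2, 0 and 4 counts in RPC libraries and none in the others, which in the NMDA libraries allows levels of up to 0.189, 0.168 and 0.167 CPM (3 counts; counting error only).

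All 4 RNA-binding proteins were higher in RPCs than in NMDA cells, and none passed the test between NMDA and aged cells. Elavl4 (HuD), a stabiliser of neuronal messages, stood at 149, 85.6 and 151 CPM in RPC libraries, 0.630, 1.96 and 0.668 after NMDA, 0.219 and 1.14 in aged libraries and 0 in both young ones. Its level after NMDA overlapped that in aged cells (log2 difference 0.62 ± 0.75, edgeR adjusted p = 0.633). Elavl2 and Elavl3 were at 42.5 to 60.5 and 65.9 to 114 CPM in RPC libraries, against 1.46 to 2.39 and 1.83 to 2.67 CPM after NMDA. In the young libraries both were split, with 106 and 86 counts in replicate 1 and none in replicate 2. Rbpms, a marker of mature ganglion cells, differed least: 33.7 ± 0.869 CPM in RPC, 11.3 ± 2.30 in NMDA and 11.97 ± 1.98 in aged libraries. Its call in RPCs against NMDA cells ended without NMDA replicate 1 or 3 (edgeR adjusted p 0.0536 and 0.0562).

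Of the 9 microtubule and growth cone genes, 5 were higher in NMDA than in aged Müller cells (Stmn2, Gap43, Dpysl3, Map1b and Tubb3), and 4 (Dcx, Stmn3, Stmn4 and Crmp1) did not pass. No member outside this group was called higher in that comparison with all 10 libraries in the fit. With both young libraries left out, Onecut2, Isl1 and Nefh also passed as higher (edgeR adjusted p = 0.0396, 0.0061 and 0.0285), as did 23.9% of all genes. Mllt11 then passed as lower (edgeR adjusted p = 0.0429), as did 20.4% of all genes. Against young cells 5 of the 9 passed (Dcx, Stmn2, Gap43, Dpysl3 and Map1b), as did 7 members of other groups, Nefh and Slit1 among them. In 8 of the 9 every NMDA library was above both aged libraries, as was so for 36.7% of all genes tested. The group summed to 711 to 888 CPM after NMDA, 261 to 292 in aged, 385 to 456 in young and 2386 to 3679 CPM in RPC libraries, a sum in which the high counts of Map1b and Dpysl3 weigh most.

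Stmn2 (SCG10), a stathmin that destabilises microtubules in growth cones, had the largest difference of these. It stood at 29.2, 43.8 and 19.6 CPM after NMDA (463, 780 and 352 counts), 0.521 and 1.72 CPM in aged libraries, 150, 70.5 and 124 CPM in RPC libraries, and was listed at 0 in both young libraries. The 3 NMDA libraries lay between the uninjured and the embryonic ones, without overlap. The log2 difference from aged cells was 4.71 ± 0.66 (edgeR adjusted p = 0.00304) and that of RPCs from NMDA cells 1.67 ± 0.47 (edgeR adjusted p = 0.0171). The excess over aged cells stayed past the threshold when any 1 library was left out, whereas that of RPCs over NMDA cells lost its call without any 1 of NMDA replicates 1 and 3 and RPC replicates 1 and 3 (edgeR adjusted p 0.0516 to 0.067).

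Gap43, a growth cone membrane protein of elongating and regenerating axons, was, with Nefh, Thy1 and Rtn1, 1 of 4 members whose NMDA libraries were all above all RPC libraries, as was so for 36.5% of all genes tested. Its levels were 46.1, 54.4 and 44.2 CPM after NMDA, 11.1 and 15.8 in aged, 6.25 and 5.12 in young and 41.3, 22.7 and 36.4 CPM in RPC libraries. The NMDA cells exceeded aged cells by 1.76 ± 0.30 on the log2 scale (edgeR adjusted p = 0.00509) and young cells by 3.19 ± 0.33 (edgeR adjusted p = 0.000171). RPCs were lower than NMDA cells by a log2 difference of -0.76 ± 0.26 (edgeR adjusted p = 0.0316), a call that ended under upper-quartile scaling (-0.58, edgeR adjusted p = 0.07) and without any of the 3 NMDA libraries or RPC replicates 2 or 3 (edgeR adjusted p 0.0578 to 0.0939). Without aged replicate 1 the excess over aged cells was 1.53 (edgeR adjusted p = 0.063). A microRNA gene, Mir6540, lies inside Gap43.

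Dpysl3 (CRMP4), which binds tubulin and actin in growth cones, stood at 150, 190 and 172 CPM after NMDA, 58.2 and 52.0 in aged, 121 and 106 in young and 497, 294 and 426 in RPC libraries. After NMDA it exceeded aged cells by 1.55 ± 0.23 on the log2 scale (edgeR adjusted p = 0.00293). Aged cells were themselves called lower than young cells for Dpysl3, so this excess also holds a gap between the uninjured groups. The call of that gap ended under the replicate block (-0.86, edgeR adjusted p = 0.0644). Against young cells the excess of Dpysl3 after NMDA was 0.69 ± 0.23 (edgeR adjusted p = 0.0364). This call ended under the replicate block (0.68, edgeR adjusted p = 0.0731) and under upper-quartile scaling (0.46, edgeR adjusted p = 0.0979). It ended too without NMDA replicate 2 or 3 or RPC replicate 3 (edgeR adjusted p 0.0565 to 0.0971). The same was so without young replicate 2 (0.58) and without either aged library (0.69). Map1b, a microtubule-associated protein of growing axons, was at 470, 509 and 630 CPM after NMDA, 215 and 178 in aged, 304 and 235 in young and 2000, 1455 and 1859 CPM in RPC libraries. Every NMDA library was above every uninjured library for both genes. The Map1b difference was 1.37 ± 0.22 against aged (edgeR adjusted p = 0.00364) and 1.10 ± 0.22 against young cells (edgeR adjusted p = 0.00384), and the first lost its call without aged replicate 2 (1.24, edgeR adjusted p = 0.056).

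Tubb3, the neuronal beta-tubulin recognised by the TuJ1 antibody, depended on the uninjured group used. Its levels were 4.85, 10.5 and 7.79 CPM after NMDA, 6.25 and 9.36 in young, 1.75 and 2.26 in aged and 582, 336 and 480 CPM in RPC libraries. NMDA libraries exceeded the aged ones (log2 difference 1.87 ± 0.39, edgeR adjusted p = 0.0116) and straddled the young ones (0.11 ± 0.37, edgeR adjusted p = 0.831), and aged cells were lower than young cells (-1.75 ± 0.42, edgeR adjusted p = 0.0164). With either aged library left out, the excess over aged cells no longer passed (edgeR adjusted p 0.0746 and 0.104), nor did the difference between aged and young cells (edgeR adjusted p 0.0592 and 0.102), which also ended with those 2 groups fitted alone (edgeR adjusted p = 0.318). Dcx, the doublecortin of migrating young neurons, remained near the floor in glia, at 0.189, 0.954 and 0.390 CPM after NMDA and 0.110 and 0.120 in aged cells, against 220, 96.6 and 185 CPM in RPCs. Its NMDA libraries were above the aged ones, but the difference did not pass (log2 2.04 ± 0.84, edgeR adjusted p = 0.137). Against young cells, listed at 0, Dcx was called (edgeR adjusted p = 0.0345), but this ended under the replicate block (edgeR adjusted p = 0.08) and without either young library, NMDA replicate 2 or 3, or either aged library (edgeR adjusted p 0.0524 to 0.163). Stmn3, another stathmin, ran at 3.23 to 7.57 CPM after NMDA and 12.6 to 27.3 CPM in RPCs. Stmn4 was at 2.56 to 3.15 CPM after NMDA and 0.331 to 0.630 CPM in aged libraries, a log2 difference of 2.47 ± 1.38 that did not pass (edgeR adjusted p = 0.256) but did with both young libraries left out of the fit (edgeR adjusted p = 0.000388). Crmp1, a relative of Dpysl3 whose gene overlaps Evc, overlapped between NMDA (4.66 to 14.8 CPM) and aged libraries (3.12 to 7.71 CPM) and reached 80.1 to 142 CPM in RPCs.

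**Figure D2:**
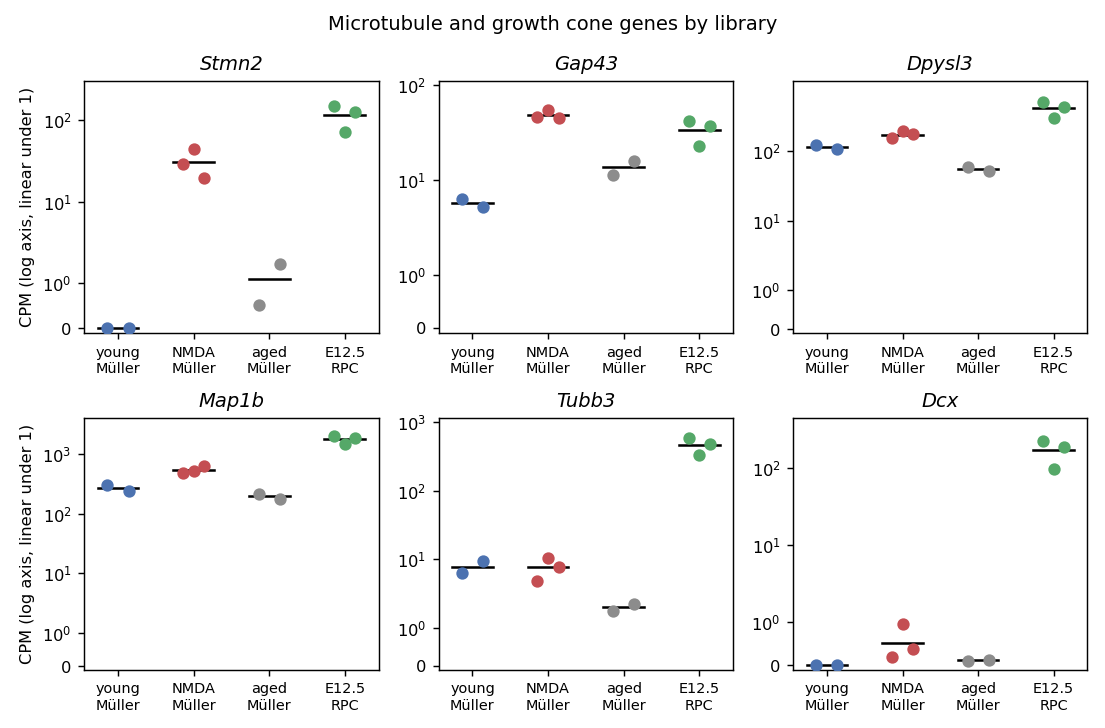
Level of 6 microtubule and growth cone genes in each of the 10 RNA libraries, in CPM on a log axis that is linear under 1; points are libraries and bars are group means. Stmn2, Gap43, Dpysl3 and Map1b lay higher in all 3 NMDA libraries than in any uninjured library, Tubb3 overlapped the young libraries, and Dcx stayed under 1 CPM in every Müller library.

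Other measured features moved with these genes in the NMDA libraries. The mature ganglion cell marker list (10 genes) summed to 331, 1069 and 415 CPM after NMDA, 153 to 183 in aged and 196 to 224 in young libraries, and Spp1, which macrophages also express, gave 94.7, 816 and 158 CPM of the NMDA sums. Tppp3 gave 223, 230 and 238 CPM of them. Among its defining genes, Slc17a6, the vesicular glutamate transporter of ganglion cells, was at 0.693, 1.12 and 0.668 CPM after NMDA and 0.411 and 0.482 in aged cells. Rbpms2 and Penk, named after their values were seen, ran the other way. Rbpms2 was at 5.29, 4.49 and 5.18 CPM after NMDA and 8.06 and 8.16 in aged cells. Penk was at 3.97, 3.20 and 5.12 against 16.2 and 10.3 CPM. By edgeR, 2 genes of this list were higher and 0 lower than in aged cells. The list had 1 to 2 genes at 0 in NMDA libraries and 0 to 1 in aged ones. The microglia and macrophage list (16 genes, none at 0 in NMDA or aged libraries) summed to 443 to 4116 CPM after NMDA against 142 to 159 CPM in aged libraries, and the amacrine list (10 genes) to 52.8 to 80.4 against 24.6 to 47.8 CPM. The bipolar cell list (10 genes, none at 0 in NMDA or aged libraries) summed to 228, 429 and 274 CPM after NMDA, 154 and 171 in aged and 136 and 132 in young libraries. The astrocyte list (6 genes, 1 at 0 in each NMDA library and none in aged ones) summed to 426, 403 and 461 CPM after NMDA, 190 and 226 in aged and 170 and 230 CPM in young libraries. Both sums were thus higher in every NMDA library than in every uninjured one. Aldh1l1 gave 408, 355 and 431 CPM of the astrocyte sums after NMDA. S100b, of the same list, ran the other way, at 3.34, 3.25 and 4.79 CPM after NMDA and 14.9 and 16.9 in aged libraries. By edgeR, 1 astrocyte gene was higher and 2 lower than in aged cells, and 1 bipolar gene was higher and 0 lower (10.5% and 9.8% of all genes). The photoreceptor list (15 genes, none at 0 in any Müller library) gave the largest sums of these lists. They were 7441, 10743 and 12024 CPM after NMDA, 8760 and 5774 in aged and 15041 and 10295 in young libraries. The NMDA sums overlapped those of both uninjured groups. By edgeR, 2 photoreceptor genes were higher and 0 lower than in aged cells. The part of the listed cell types in the growth cone results was not tested. Without NMDA replicate 2, which held the highest microglia and lens sums, 6 members were higher and 2 lower than in aged cells. Of all 18695 genes tested in that setting, 1424 were higher and 1326 lower.

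The intermediate filament genes divided into 3 that were higher in RPCs than in NMDA cells and 1 that was lower. Nefl and Nefm, the light and medium neurofilament chains, and Ina, the alpha-internexin of early axons, were high in RPCs, at 64.6 to 151, 50.7 to 103 and 46.7 to 115 CPM, against 1.89 to 2.69, 0.501 to 0.898 and 0.945 to 4.38 CPM after NMDA. All 3 were called higher in RPCs than in NMDA cells. Nefh, the heavy chain of mature axons, showed the reverse, with 2, 0 and 0 counts in RPC libraries and 2.08, 4.10 and 3.67 CPM after NMDA. Its level was lower in RPCs by a log2 difference of -6.02 ± 1.02 (edgeR adjusted p = 0.00144). Nefh passed the low-count filter through the Müller libraries alone, so the direction of that call was fixed by the filter. Against aged cells (0.658 and 1.02 CPM) every NMDA library was higher, yet the difference did not pass (1.88 ± 0.88, edgeR adjusted p = 0.183), and it passed with both young libraries left out of the fit (edgeR adjusted p = 0.0285). Nefh overlaps Ap1b1, Ina overlaps Nt5c2 and Nefm a predicted gene, so some of their reads may belong to those genes.

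Among the surface and guidance genes, Cntn2 (TAG-1), an adhesion molecule of outgrowing ganglion cell axons, was at 241, 120 and 191 CPM in RPC libraries and 0.945, 1.46 and 0.946 CPM after NMDA (log2 difference 7.12 ± 1.10, edgeR adjusted p = 0.000582). Its young libraries held 258 counts and 1 count. Slit1, a secreted guidance ligand, was at 39.4 to 62.5 CPM in RPCs, 1.26 to 2.47 after NMDA and 0.795 to 1.54 CPM in aged cells. Robo2, a receptor for Slit proteins, was expressed in glia and embryo alike: 119 ± 22.0 CPM after NMDA, 122 ± 8.06 in aged, 170 ± 26.6 in young and 121 ± 23.9 in RPC libraries. Its span holds 9 other annotated genes. Its lower level in RPCs than in young cells (log2 difference -0.63 ± 0.22, edgeR adjusted p = 0.0335) lost its call without young replicate 1 (-0.43, edgeR adjusted p = 0.161), either aged library, or RPC replicate 2 or 3 (edgeR adjusted p 0.0539 to 0.0882).

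Thy1, a surface glycoprotein of mature ganglion cells, ran against most of the list. It stood at 91.2 and 59.3 CPM in young, 91.5 and 87.2 in aged, 47.5, 30.7 and 51.3 after NMDA, and at 1, 1 and 2 counts in RPC libraries (0.0689 to 0.175 CPM). All NMDA libraries were below all uninjured ones, and all RPC libraries far below both. RPCs differed from NMDA cells by -8.78 ± 0.41 on the log2 scale (edgeR adjusted p = 3.51e-07). Thy1 passed the low-count filter through the Müller libraries alone, so the direction of that call was fixed by the filter. The difference after NMDA was -1.13 ± 0.25 on the log2 scale against aged cells (edgeR adjusted p = 0.0154), and it lost its call when either aged library was left out (edgeR adjusted p 0.0919 and 0.103). Against young cells it was -0.70 ± 0.25 (edgeR adjusted p = 0.0521), just short of the threshold, and it passed with RLE scaling, upper-quartile scaling, the 5 CPM filter and DESeq2 (adjusted p 0.02 to 0.0391).

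In the last group, Rtn1, a reticulon of the endoplasmic reticulum of neurons, was also a gene of the adult cells. Its levels were 148 ± 23.1 CPM after NMDA, 152 ± 3.09 in aged, 138 ± 36.1 in young and 33.6 ± 8.52 in RPC libraries, and RPCs were lower than NMDA cells by a log2 difference of -2.37 ± 0.23 (edgeR adjusted p = 3.35e-05). Nsg1, an endosomal protein of neurons that overlaps Stx18, reached 59.3 to 65.6 CPM in RPCs and 2.17 to 3.70 CPM after NMDA. Sncg, the gamma-synuclein of ganglion cells, was at 5.15 to 11.2 CPM in RPCs and 0.0630 to 0.617 CPM after NMDA. Mllt11, whose gene overlaps Cdc42se1, was at 26.1 to 48.4 against 4.23 to 6.11 CPM, a log2 difference of 2.67 ± 1.08 that did not pass (edgeR adjusted p = 0.0608) but did with both young libraries left out (edgeR adjusted p = 2.13e-05). None of the 4 passed the test between NMDA and aged cells with all 10 libraries in the fit.

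**Figure D3:**
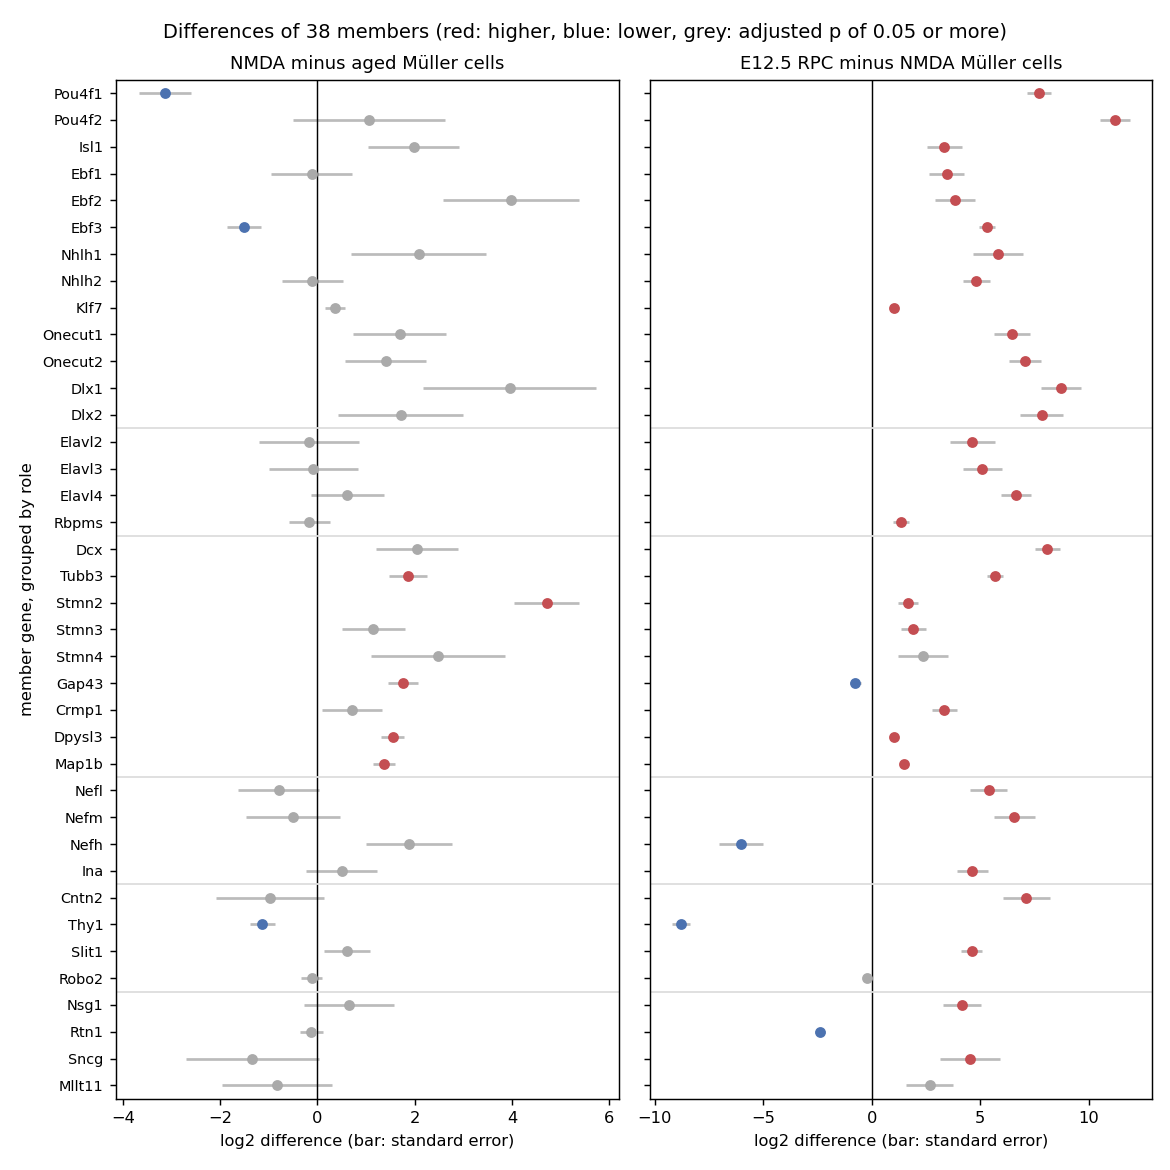
Log2 differences of the 38 tested members (rows, grouped by role) between NMDA and aged Müller cells (left) and between RPCs and NMDA cells (right), from edgeR, with bars of 1 standard error. Red and blue points passed at an adjusted p under 0.05 with all 10 libraries in the fit. On the left the 5 red points all fall in the microtubule and growth cone group, and on the right 31 of 38 are red.

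Within the embryonic pool the early neuron genes varied together between libraries. RPC replicate 2 had the lowest level for 34 of the 38 members with a count (89.5%), as it did for 28.3% of all genes tested. The median ratio of its level to the mean of the other 2 libraries was 0.622 over members and 1.02 over all genes. The members summed to 6092, 3821 and 5412 CPM in the 3 libraries, whereas the retinal progenitor marker list (10 genes) was even, at 8339, 8133 and 8413 CPM. Blood marker genes (7) also varied, at 1802, 451 and 268 CPM, in another order. The 4 genes away from this pattern were Stmn4 (17.1, 17.8 and 17.6 CPM), Rbpms (32.8, 34.5 and 33.7 CPM), Thy1 (1, 1 and 2 counts) and Nefh (2, 0 and 0 counts). Among the NMDA libraries, replicate 2 was highest for 23 of 38 members (60.5%, against 37.7% of all genes). Without RPC replicate 2, 31 members were higher in RPCs than in NMDA cells, as were 4137 of all 18776 genes tested in that setting.

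A list of 40 other newborn neuron and neurogenic genes, none of them members, was set beside them. Of the 38 tested, 26 were higher and 5 lower in RPCs than in NMDA cells (25.8% and 31.9% of all genes). In NMDA against young cells 8 were higher and 3 lower (30.6% and 14.3% of all genes). In NMDA against aged cells 2 were higher and 0 lower (10.5% and 9.8% of all genes). These 2, named after their values were seen, were Neurog2, a proneural factor (4.93 ± 2.89 against 1.50 ± 0.140 CPM, edgeR adjusted p = 0.0327), and Syt4, a synaptotagmin of secretory vesicles (38.2 ± 29.3 against 6.22 ± 4.45 CPM, edgeR adjusted p = 0.0456). Neurog2 was at 3.42 and 5.12 CPM in young libraries, within the range of the NMDA libraries (8.26, 3.03 and 3.51 CPM), and did not pass against young cells (log2 difference 0.32 ± 0.43, edgeR adjusted p = 0.577). The genes with the smallest adjusted p against young cells were Tfap2a, Eya2 and Dpysl5. Tfap2a, an amacrine and horizontal cell factor, was at 5.57 ± 3.59 CPM after NMDA, and Eya2, a transcriptional cofactor, at 0.787 ± 0.138 CPM, both listed at 0 in young cells. In aged cells Tfap2a was at 2.25 ± 0.622 CPM and Eya2 at 1.69 ± 0.984 CPM, and neither passed between NMDA and aged cells (edgeR adjusted p 0.241 and 0.0952). Dpysl5 (CRMP5) was at 108 ± 19.2 CPM in young cells and lower after NMDA, at 56.5 ± 5.65 CPM (log2 difference -0.83 ± 0.16, edgeR adjusted p = 0.00312). In the uninjured aged libraries it was at 66.1 and 72.7 CPM, and it was not called lower in NMDA than in aged cells. Atoh7, the factor required for ganglion cell genesis, also named after its values were seen, was at 478, 360 and 454 CPM in RPC libraries and at most 0.167 CPM in any Müller library.

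DNA methylation was compared in 31 members with at least 5 measured CpG positions within 1000 bases of a gene end, taken as the RefSeq start for 20 of them and otherwise as the annotated end with more positions. Nhlh1, Stmn3, Stmn2, Nhlh2, Sncg, Nefl, Gap43 and Dcx had too few positions or lay on the X chromosome, so methylation at Stmn2 and Gap43 was not analysed here. In 28 of the 31, no library reached more than 10% methylated reads. Over these 28, the levels ran from 0.586% to 9.55% (median 3.52%) in young, 0% to 8.19% (1.04%) in NMDA, 0% to 4.69% (0.544%) in aged and 0% to 8.30% (1.19%) in RPC libraries. The higher level in young libraries was not particular to the members, since the median over all 10751 gene ends was 3.00% to 3.997% in young and 0.427% to 2.15% in the other libraries. Ebf1, Ebf2 and Slit1 were the 3 exceptions. A call needed an adjusted p under 0.05 in a quasi-binomial test over all gene ends and a difference of at least 10 points.

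**Figure D4:**
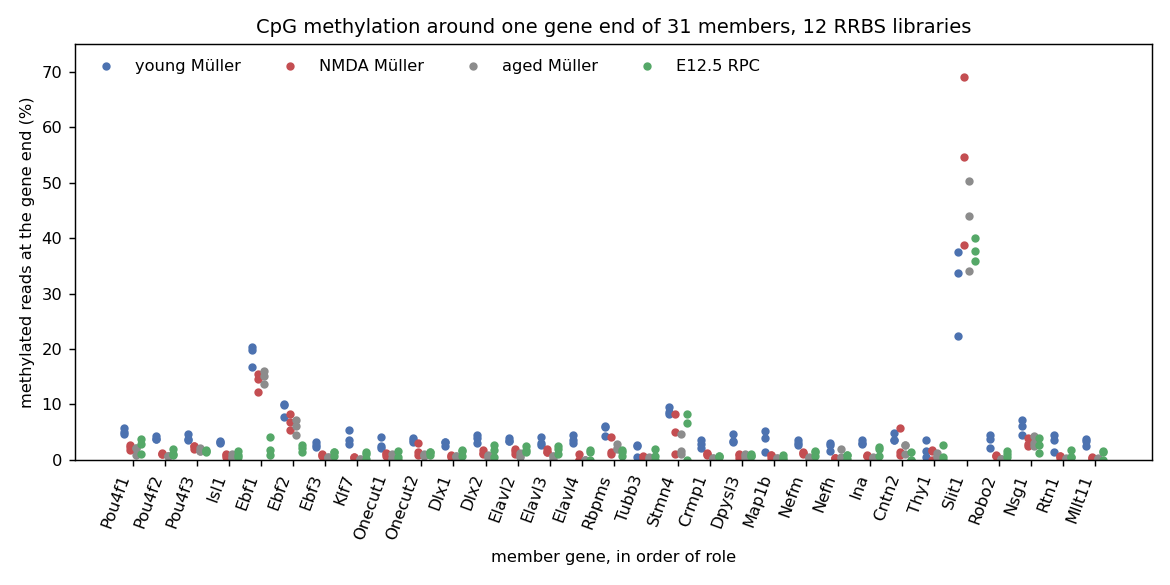
Share of methylated reads within 1000 bases of one gene end for 31 members (horizontal axis, in order of role) in the 12 RRBS libraries, one point per library, coloured by group. Most members lie under 10% in every library; Ebf1 is at 12.2% to 20.4% in Müller libraries and under 5% in RPC libraries, and Slit1 lies between 22.3% and 69.1%.

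Ebf1, whose promoter is shown above, was more methylated in glia than in the embryonic cells. Over 20 CpG positions from 17 to 357 bases downstream of the start at chr11:44620228 the level was 20.4%, 19.8% and 16.8% in young, 14.5%, 15.5% and 12.2% in NMDA, 15.1%, 13.7% and 16.0% in aged and 0.862%, 4.18% and 1.81% in RPC libraries. All 9 Müller libraries were above all 3 RPC libraries. RPCs were lower than young cells by a difference of -16.6 points (quasi-binomial adjusted p = 4.95e-09) and than NMDA cells by -11.9 points (quasi-binomial adjusted p = 1.77e-06). Ends called lower made up 0.986% of all ends in the first comparison and 1.87% in the second, and Ebf1 was the 1 member called lower in each, with 0 members called higher (2.31% and 1.47% of all ends). At 9 of the 20 positions every Müller library exceeded every RPC library. The widest gaps, picked after the values were seen, were at the positions 352 and 357 bases downstream, where 69.0% to 92.4% and 42.9% to 83.0% of reads were methylated in Müller libraries against 5.56% to 9.35% and 5.56% to 14.4% in RPC libraries, with 36 to 205 reads per library. After NMDA the Ebf1 level was 4.70 points below that of young cells (quasi-binomial adjusted p = 0.0262), under the 10 points a call needs, and close to that of aged cells (-0.82 points, quasi-binomial adjusted p = 0.806). The RNA level of Ebf1 was 18.3, 11.0 and 19.8 CPM in RPC libraries and 0.567, 2.81 and 0.445 CPM after NMDA.

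**Figure D5:**
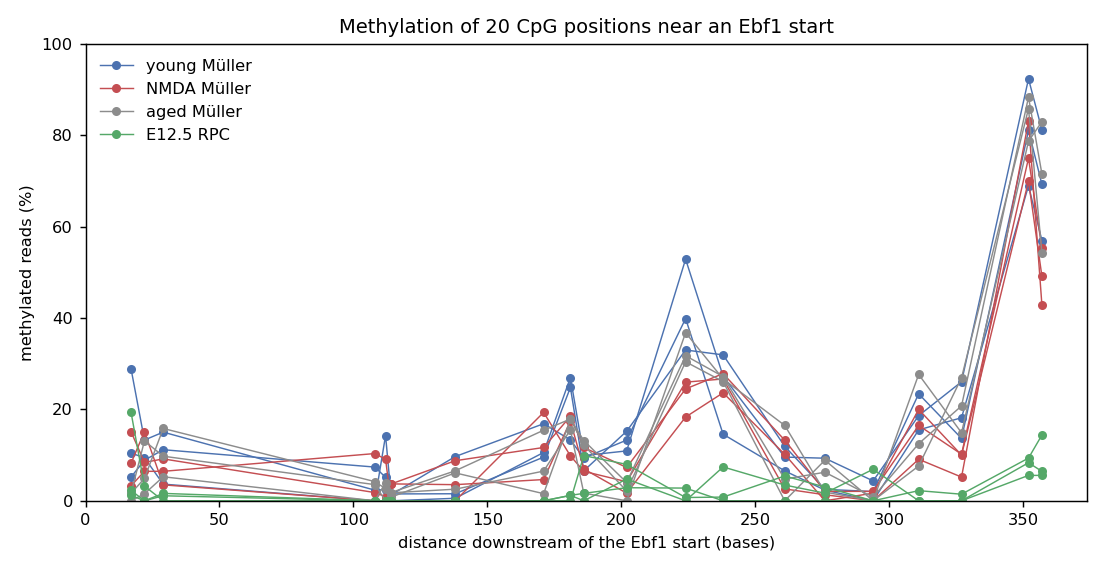
Methylated reads in percent (vertical axis) at 20 CpG positions against their distance downstream of the Ebf1 start in bases (horizontal axis); each line is 1 of 12 RRBS libraries, coloured by group. The RPC lines stay under 20% throughout, and the Müller lines climb to 42.9% to 92.4% at the last 2 positions.

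Ebf2 showed a smaller difference of the same direction over 54 positions at an annotated end (strand not given): 6.87% of pooled reads after NMDA, 8.94% in young, 5.94% in aged and 2.21% in RPC cells. The RPC difference from young cells was -6.73 points (quasi-binomial adjusted p = 5.48e-07), short of the 10 points a call needs. Slit1 was the 1 member called higher after NMDA than in young cells (1.5% of all ends were called so), and 0 were called lower (0.242%). With windows of 500 bases no member was called higher. Its end was read at only 6 positions, with 22.3%, 37.5% and 33.7% in young, 38.7%, 54.5% and 69.1% in NMDA, 50.3%, 33.99% and 43.98% in aged and 39.96%, 35.9% and 37.7% in RPC libraries. The NMDA libraries were all above the young ones (21.2 points, quasi-binomial adjusted p = 0.000816) and overlapped the aged ones (7.87 points, quasi-binomial adjusted p = 0.575). No member was called between aged and young cells, where 0.456% and 0.353% of all ends were called higher and lower. Nor was any called between NMDA and aged cells, where 1.16% and 0.0465% of all ends were called higher and lower, at differences of at least 10 points in the quasi-binomial test. The Tubb3 end, at 36 positions, was at 0% to 0.711% after NMDA and 0% to 1.93% in RPCs, and the Map1b end, at 26 positions, at 0.352% to 0.836% and 0% to 0.889%.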

How the data were processed

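The members and all lists were chosen with earlier results of these data known. The authors deposited read counts per gene symbol for 10 RNA libraries; per the submitters' processing notes, which give no tool a role, methylKit 1.4.0, Bismark 0.16.3, Trim Galore 0.4.3 and HISAT2 2.0.4 were used with GRCm38 and mm10. The counting tool and strand setting are not given in the sources used here. For 12 RRBS libraries the deposited values are, per the file headers, the percent of methylated reads and the coverage as a read count for each CpG position; the positions listed all have at least 10 reads.

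Counts were fitted over all 10 libraries with edgeR 4.0.16 in R 4.3.3 (TMM scaling, filterByExpr, quasi-likelihood test, Benjamini-Hochberg over 18931 genes), leaving 6 degrees of freedom between libraries, at a typical biological coefficient of variation of 0.411 (edgeR's common value). In counts simulated at the depths of these libraries, 80 of 100 genes changed 2-fold and 97 of 100 changed 4-fold were recovered, with 9 false calls among 18931 genes. The simulated spread was smaller than the 0.411 of the data, and the simulated young libraries did not lack low counts. These rates check that the code runs as intended and do not give the power or error rate of the comparisons here. Genes of the RNA table were placed by RefSeq (GRCm38.p6), which also gave overlapping genes.

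Methylated reads were summed over autosomal positions present in all 12 libraries (743808 positions) within 1000 bases of 1 end of each gene with at least 5 positions (10751 ends), and tested with a quasi-binomial model whose overdispersion was moderated with limma 3.58.1. On simulated ends changed by 20 points, 200 of 200 were recovered with 0 false calls. The changes were placed only at ends of intermediate methylation and with a set spread, whereas most member ends had low methylation. This result checks the code and gives no recovery rate for such ends. DESeq2 1.42.0, other scalings, filters, windows and left-out libraries were alternatives. Every member is named, and from each other list at most the 3 genes with the smallest adjusted p between NMDA and young cells, except where stated. The replicate numbers of the labels did not pair libraries: same-numbered RNA libraries correlated at -0.056 to 0.075 in their deviations from group means (13 pairs), and RRBS libraries at -0.158 to 0.11 (18 pairs).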

Additional observations from a re-analysis of the deposited data

How the results depend on the processing

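Few genes have low counts in the young RNA libraries, and with 2 young and 2 aged libraries single libraries decide several calls; the causes were not tested. Of 20 counts of member calls, the values that moved by more than 1.5 times were as follows. Members lower in NMDA than in young cells, 0 as reported, were 1 with RLE scaling, 3 with upper-quartile scaling, 1 with the 5 CPM filter, 1 with DESeq2 and 2 with the replicate block, and 0 to 5 with 1 library left out. Upper-quartile scaling left 11 higher, and moved the median of all genes in this comparison from 0.26 to 0.04 and the calls over all genes from 5795 higher and 2702 lower to 5094 and 3825; in aged against young cells the calls went from 3997 and 1108 to 3527 and 1848. Members higher in aged than in young cells were 8 as reported, 0 with those 2 groups alone, 5 among members holding no other gene and 4 to 13 with 1 library left out. Those lower were 2, with 1 under the replicate block, 0 with the 2 groups alone, 1 at a change of at least 2-fold and 0 to 7 with 1 library left out. Members higher in NMDA than in aged cells were 5 as reported, 8 with the 2 groups alone, and 3 to 9 with 1 library left out (9 without young replicate 1 or 2, 3 without aged replicate 1). They were 9 without both young libraries, an alternative chosen after seeing the data, under which 23.9% of all genes were called higher and 20.4% lower. Those lower were 3 as reported and 1 to 4 with 1 library left out, with 1 when aged replicate 2 was left out. RPCs had 3 members lower than young cells and 1 among members holding no other gene, and 4 lower than NMDA cells and 2 among such members. RPC counts of higher members ran from 29 to 34 against young and from 27 to 33 against NMDA cells with 1 library left out.

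Counting only cases with a call in the reported or the changed fit, the sign turned in 13 cases, all by leaving out 1 young library. Sign changes without a call were not counted. Each pair gives the log2 difference without young replicate 1 and then without young replicate 2. For NMDA against young cells it was 8.14 and -1.83 for Elavl2, 8.49 and -1.18 for Elavl3, 4.599 and -1.24 for Nefl, -1.29 and 8.82 for Stmn4, and -1.81 and 6.87 for Nefm. For aged against young cells it was 4.22 and -1.70 for Isl1, 8.31 and -1.65 for Elavl2, 8.56 and -1.10 for Elavl3, 4.52 and -2.84 for Cntn2, 7.00 and -2.41 for Sncg, -1.54 and 7.24 for Onecut2, -3.76 and 6.35 for Stmn4, and -1.31 and 7.38 for Nefm.

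In methylation, the end called higher in NMDA than in young cells was 1 as reported and 0 with windows of 500 bases. The ends called lower in RPCs than in young cells were 1 and, with unweighted means in limma, 2; those called lower than in NMDA cells were 1, with 2 at a minimum of 20 reads, 2 with limma and 1 to 2 with 1 library left out. Ends higher in RPCs than in young cells were 0, and 0 to 1 with 1 library left out. Ends higher in aged than in young cells were 0, with 1 at 20 reads and 0 to 1 with 1 library left out. The replicate block left the count of methylation calls as reported in all 5 comparisons, and in RNA it gave 8 members higher in NMDA than in young cells and 5 higher than in aged cells.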

Other observations

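Of 15 widely expressed cytoskeleton relatives of the members, 9 were higher and 2 lower in NMDA than in aged Müller cells (10.5% and 9.8% of all genes). Against young cells 9 were higher and 3 lower (30.6% and 14.3% of all genes). Tubb6, a beta-tubulin, stood at 36.8 ± 5.64 CPM after NMDA, 0.934 ± 0.384 in aged cells and 0 in both young libraries (log2 difference from aged cells 5.20 ± 0.37, edgeR adjusted p = 0.000164). Tubb2b, a beta-tubulin of developing brain, stood at 154 ± 15.3 CPM after NMDA, 21.3 ± 2.39 in aged, 32.3 ± 0.293 in young and 286 ± 36.3 CPM in RPC libraries, with a log2 difference of 2.78 ± 0.16 from aged cells (edgeR adjusted p = 3e-05). Map4, a microtubule-associated protein of many cell types, was at 890 ± 70.7 CPM after NMDA and at 4.55 ± 4.02 CPM in young cells, but at 614 and 640 CPM in the aged libraries, from which the NMDA cells did not pass as different (log2 difference 0.42 ± 0.35, edgeR adjusted p = 0.46).

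Of 15 axon injury and regeneration genes, 5 were higher and 1 lower in NMDA than in aged cells (10.5% and 9.8% of all genes). Against young cells 7 were higher and 3 lower (30.6% and 14.3% of all genes). The 3 named by the smallest adjusted p against young cells were Lifr, a cytokine receptor, Tubb6, and Hspb1, a small heat shock protein; all 3 were listed at 0 in both young libraries, and Lifr stood at 120 ± 7.74 and Hspb1 at 6.20 ± 0.574 CPM after NMDA. Aged uninjured cells had 131 and 118 CPM of Lifr and 5.81 and 4.52 CPM of Hspb1, and neither gene passed between NMDA and aged cells (edgeR adjusted p 0.762 and 0.825). Of 10 genes of the REST complex, which represses neuronal genes in other cells, 0 passed in either direction between NMDA and aged cells by edgeR. In NMDA against young cells 2 were higher and 0 lower (30.6% and 14.3% of all genes). These were Sin3a, a corepressor scaffold (96.4 ± 6.24 against 9.47 ± 4.47 CPM, edgeR adjusted p = 5.9e-05), and Rest itself (132 ± 2.34 against 69.2 ± 41.3 CPM, edgeR adjusted p = 0.0252). In aged cells Sin3a was at 93.0 ± 1.04 CPM (edgeR adjusted p = 0.959 between NMDA and aged cells) and Rest at 162 ± 0.621 CPM.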
